A study of Mus musculus with 12 samples.

Results

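The cells described here were cluster 11 of the 28W kidney library, a group of 359 cells among the 7135 cells of that library and the 20510 cells of all 3 libraries. The cells were defined by the cluster number that the authors deposited for each cell barcode, and this cluster was chosen with earlier results of these data known. They made up 5.03% of the kidney cells (exact binomial interval 4.54% to 5.56%, counting error only). All libraries came from NZB/W F1 mice, a cross that develops lupus nephritis, with no treatment named, and in all of them T cells positive for PD-1, CD44 and CD8 were sorted for 10x 5′ single-cell RNA-seq. According to the study's methods NZB/W F1 mice were female, and renal tissue was dissociated with collagenase and layered on a Percoll gradient. The groups were 12W spleen, from mice aged 12 weeks and without disease, and 28W spleen and 28W kidney, from mice aged 28 weeks with advanced nephritis. For 28W spleen the title was followed, since the age given in its labels is 12 weeks. Each group has 4 samples in the labels, but the expression table of a group holds 1 pooled column per cluster, and no source says how many mice each library held. With 1 library per group no test across samples was possible, so all differences are descriptions of these libraries, and every interval covers counting error only.

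Proliferating T cells copy their DNA in S phase and separate the copies in mitosis. The genes for the replication machinery are switched on by E2F transcription factors before and during S phase, whereas many genes for the spindle, the kinetochore and mitotic kinases are switched on later through promoter elements called CHR, bound by the DREAM and MuvB complexes. In CD8+ T cells a burst of division accompanies effector differentiation, in which granzymes are gained and memory-associated genes such as *Tcf7* and *Il7r* are reduced.

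Expression was measured in unique molecular identifiers (UMIs), which count captured RNA molecules, and levels are given in UMIs scaled to 1000000 UMIs of the cluster (CPM). The library totals were 34742303 UMIs for 12W spleen (6894 cells), 32023473 for 28W spleen (6481 cells) and 29937384 for 28W kidney. The 359 cells held 4093889 UMIs, or 13.7% of the UMIs of the library, while the other 11 clusters held 6776 cells. This amounted to 11404 UMIs per cell, which was 2.99 times the 3814 UMIs per cell of the other clusters. Each other kidney cluster was between 1200 UMIs per cell (cluster 2) and 5677 UMIs per cell (cluster 1), so no other cluster approached the RNA content of cluster 11. A level in CPM is thus a share of a larger pool. A gene or list with a lower share can still have more UMIs per cell, and UMIs per cell are given for some of these. Of the cell barcodes of cluster 11, 2 were also present in 12W spleen and 4 in 28W spleen, among 56 and 66 barcode sequences that the kidney library shared with each.

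All 4 genes that mark the cells as cycling were highest in cluster 11. *Mki67*, which encodes the nuclear proliferation antigen Ki-67, was at 484 CPM in cluster 11 (exact Poisson interval 463 to 506, 1981 UMIs), and the next cluster, cluster 2, was at 89.9 CPM. *Top2a*, the topoisomerase that untangles replicated DNA, was at 566 CPM against 80.9 CPM in cluster 12. *Birc5*, the survivin subunit of the chromosomal passenger complex, was at 786 CPM against 68.4 CPM in cluster 12. *Stmn1*, a microtubule-destabilising protein, was at 1497 CPM against 219 CPM in cluster 12. Each marker was highest in cluster 11 of all 12 clusters, with no overlap of the counting intervals. Cluster 11 contained 80.5% of the *Mki67* UMIs of the library and 90.9% of the *Birc5* UMIs. On GRCm38 the genes lie at chr7:135689784-135716361 (*Mki67*), chr11:98992943-99024189 (*Top2a*), chr11:117849251-117855743 (*Birc5*) and chr4:134468320-134473843 (*Stmn1*). Since each column sums all cells of a cluster, fewer cells with a transcript and less of it per cell cannot be told apart here or in any value that follows.

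**Figure D1:**
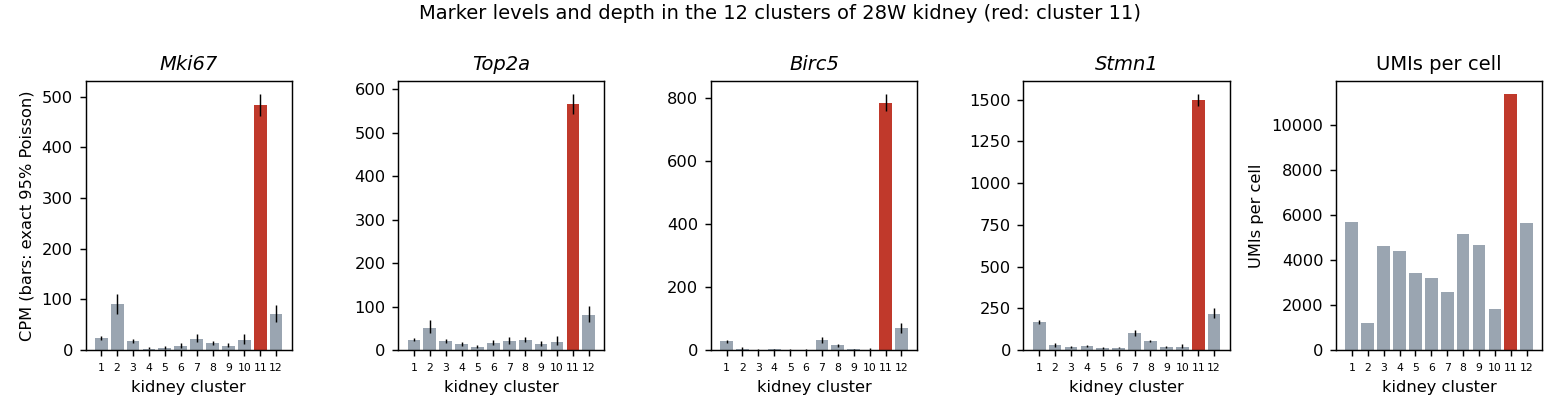
Levels of the 4 marker genes (CPM, with exact 95% Poisson intervals of the counts) and UMIs per cell in each of the 12 kidney clusters, with cluster 11 in red. Cluster 11 stands above the other 11 clusters for every marker and for UMIs per cell, at 11404 against at most 5677.

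The S phase genes and the mitotic genes were next compared for promoter elements. RefSeq promoter windows of GRCm38.p6 (250 bases before to 50 bases after each transcription start) were searched on both strands. The E2F search used the letters TTTCCCGC, TTTGGCGC, TTTCGCGC and TTTGCCGC, the CHR search TTTGAA and the CCAAT box search CCAAT. Of the 79 genes in the S phase lists without histones, 62 matched a promoter, with 73 windows, and 20 of these windows held an E2F match (27.4%). Of the 96 genes in the mitosis lists, 80 matched, with 91 windows, of which 11 held an E2F match (12.1%) and 48 held a CHR match (52.7%). CHR matches were present in 10 of the 73 S phase windows (13.7%). Over all 32851 windows, 2.27% held an E2F match and 17.9% a CHR match, and over the 9255 windows of genes counted in the kidney these were 4.39% and 12.4%. CCAAT matches were present in 60.3% of the S phase windows, 65.9% of the mitosis windows and 37.4% of all windows. They thus did not distinguish the S phase from the mitosis lists. CHR and CCAAT were both present in 41.8% of the mitosis windows, 9.59% of the S phase windows and 6.95% of all windows. Within the mitosis lists the spindle genes had CHR matches in 17 of 20 windows, whereas the cohesin list had 1 of 6 and the tubulin list 1 of 7. Within the S phase lists origin licensing had E2F matches in 7 of 11 windows, and nucleotide synthesis in 0 of 11. These letters describe the windows and do not show binding.

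The windows below are those of the 2 S phase genes with the highest ratio of cluster 11 to the other kidney cells among genes of at least 50 CPM whose single window held an E2F match, with that match in capitals. *Pclaf* (chr9:65890073-65890372, plus strand) encodes a clamp-associated factor of the replication fork, and *Clspn* (chr4:126556730-126557029, plus strand) encodes claspin, an adaptor of the replication checkpoint.
Pclaf: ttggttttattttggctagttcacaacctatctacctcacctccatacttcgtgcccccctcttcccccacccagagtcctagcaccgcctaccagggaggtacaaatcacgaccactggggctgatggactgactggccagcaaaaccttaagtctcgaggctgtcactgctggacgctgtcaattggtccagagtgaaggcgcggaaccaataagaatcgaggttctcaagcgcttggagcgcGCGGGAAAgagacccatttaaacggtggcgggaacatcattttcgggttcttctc
Clspn: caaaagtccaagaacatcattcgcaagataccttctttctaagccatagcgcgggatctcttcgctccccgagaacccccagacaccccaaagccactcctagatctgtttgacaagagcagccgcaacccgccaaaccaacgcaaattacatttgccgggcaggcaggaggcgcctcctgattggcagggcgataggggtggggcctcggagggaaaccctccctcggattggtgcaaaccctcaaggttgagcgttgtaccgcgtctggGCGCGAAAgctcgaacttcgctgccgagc

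For mitosis, with both CHR and CCAAT matches required, the corresponding windows are those of *Ube2c* (chr2:164769679-164769978, plus strand), the ubiquitin-conjugating enzyme of the anaphase-promoting complex, and *Hmmr* (chr11:40733388-40733687, minus strand), a spindle-assembly factor. CHR and CCAAT matches on either strand are in capitals.
Ube2c: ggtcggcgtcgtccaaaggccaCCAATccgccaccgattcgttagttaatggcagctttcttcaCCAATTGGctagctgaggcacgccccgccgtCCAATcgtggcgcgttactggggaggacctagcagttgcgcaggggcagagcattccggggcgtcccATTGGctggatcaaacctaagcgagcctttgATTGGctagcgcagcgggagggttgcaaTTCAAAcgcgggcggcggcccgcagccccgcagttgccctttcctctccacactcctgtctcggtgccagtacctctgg
Hmmr: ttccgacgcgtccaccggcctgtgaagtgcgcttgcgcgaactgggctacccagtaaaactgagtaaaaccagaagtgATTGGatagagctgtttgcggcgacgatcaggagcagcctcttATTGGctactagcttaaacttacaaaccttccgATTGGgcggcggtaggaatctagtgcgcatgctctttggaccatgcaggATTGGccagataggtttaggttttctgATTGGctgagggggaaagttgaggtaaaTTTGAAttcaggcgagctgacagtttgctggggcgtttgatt
The *Ube2c* window held 1 CHR and 6 CCAAT matches and the *Hmmr* window 1 CHR and 5 CCAAT matches, while neither held an E2F match. Among the marker genes the *Top2a* window held 2 CHR and 6 CCAAT matches and the *Mki67* window 2 CHR and 3 CCAAT matches. The *Birc5* window held none of the searched letters. The *Pclaf* and *Clspn* windows each held 2 CCAAT matches, not in capitals above, and 0 CHR matches.

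Cluster 11 was next compared with the other 11 kidney clusters summed. A gene was counted when it reached 5 CPM on either side, and it is called higher or lower at a log2 ratio of at least 1 or at most -1, computed on CPM + 1. Of 9405 genes counted, 744 were called higher (7.91%) and 939 called lower (9.98%), and the median log2 ratio over all counted genes was -0.09. Without clusters 2, 7, 8 and 12, which are rich in markers of other cell types, 791 genes were called higher and 495 lower. With a pseudocount of 10 CPM 500 were higher and 326 lower, so the balance of calls depends on these choices. Cluster 11 was itself rich in such markers. Its B cell genes summed to 925 CPM against a median of 111 CPM over the 12 clusters, and its haemoglobin genes to 1799 CPM against 4.08 CPM. Cluster 11 was the highest of the 12 clusters for 1574 genes (16.7%). The 267 counted genes of the cell cycle lists accounted for 236 of the 744 genes called higher, and 508 genes called higher were in no such list. Cell cycle lists took up 6.46% of all UMIs in cluster 11 and 0.890% in the other clusters. Since the cluster was formed from these same genes, its distance from the rest is a description of the cluster.

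The genes for licensing and copying DNA were called higher nearly throughout. Of the 12 origin licensing genes 11 were called higher, with a median log2 ratio of 2.1, and all 12 were highest in cluster 11. *Mcm5*, a subunit of the replicative helicase, was at 186 CPM against 36.2 CPM in the other clusters, and cluster 1 came next at 89.5 CPM. *Cdc6*, a helicase loader, was at 35.4 CPM against 2.98 CPM, while *Cdt1*, another loader, was at 55.2 CPM against 31.4 CPM, a log2 ratio of 0.80, and was the member not called. All 25 replication fork genes were called higher, with a median of 2.05. *Pclaf* was at 1199 CPM against 24.3 CPM, whereas *Pcna*, the sliding clamp itself, was at 224 CPM against 66.7 CPM.

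Nucleotide synthesis followed, with 9 of 11 genes called higher and a median log2 ratio of 2.26. *Rrm2*, the regulated subunit of ribonucleotide reductase, was at 593 CPM against 12.6 CPM, and *Tk1*, thymidine kinase, at 218 CPM against 11.8 CPM. *Tyms*, thymidylate synthase, was at 345 CPM against 30.1 CPM. The uracil glycosylase *Ung* was level at 19.1 CPM against 19.1 CPM. All 14 chromatin assembly genes were called higher, among them the chromatin protein *Hmgb2* at 4777 CPM against 439 CPM and the histone variant *H2afz* at 3046 CPM against 659 CPM. Of 55 counted replication histone genes 54 were called higher, with a median of 3.30, and their summed level was 13743 CPM against 777 CPM. *Hist1h2ap* alone was at 6596 CPM against 161 CPM, or 75.2 UMIs per cell against 0.614. Histone genes are near-identical copies of each other, so the split of reads among them is uncertain and the summed level is the firmer value. Of the 17 DNA repair and checkpoint genes 15 were called higher, while the kinase *Atm* was at 16.9 CPM against 27.5 CPM.

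The mitotic genes had larger ratios than the S phase genes. All 19 centromere and kinetochore genes, all 21 spindle and cytokinesis genes, all 11 mitotic kinase and checkpoint genes and all 9 genes of the anaphase-promoting complex and cohesion exit were called higher, with medians of 4.63, 4.47, 4.56 and 4.57. Each of them was highest in cluster 11. *Plk1*, a kinase for mitotic entry and spindle poles, was at 194 CPM against 2.90 CPM. *Aurkb*, the kinase of the chromosomal passenger complex, was at 176 CPM against 5.15 CPM. *Nuf2*, a microtubule-binding kinetochore subunit, was at 78.9 CPM against 0.890 CPM, and *Cenpf* was at 265 CPM against 4.72 CPM. *Ube2c* was at 993 CPM against 14.3 CPM and *Cdc20*, an activator of the same complex, at 219 CPM against 7.86 CPM. *Nusap1*, a spindle microtubule bundler, was at 338 CPM against 4.49 CPM.

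Lists for chromosome structure were more divided. Of 11 condensin and topoisomerase genes 10 were called higher, and the exception was *Top2b* at 75.0 CPM against 101 CPM. Of 9 cohesin genes 2 were called higher, *Rad21* (288 CPM against 83.5 CPM) and *Smc1a*, with a list median of 0.56. Among 6 nuclear envelope genes 5 were called higher, with *Lmnb1* at 663 CPM against 79.8 CPM and *Lmna* at 12.7 CPM against 17.0 CPM. Of 8 counted tubulins 6 were called higher, and *Tuba1b* was at 3014 CPM against 228 CPM.

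Among the regulators of the cycle, 12 of 18 cyclins, CDKs and their partners were called higher and 2 lower. *Ccna2*, the cyclin of S and G2 phase, had the highest ratio of any listed cell cycle gene, at 446 CPM against 4.80 CPM. *Cdk1* was at 328 CPM against 6.81 CPM and *Ccnb1* at 142 CPM against 3.64 CPM. *Ccnd2*, a G1 cyclin, was the reverse, at 102 CPM against 223 CPM, the lowest of all 12 clusters, although at 1.17 UMIs per cell against 0.849. *Ccnd3* was level at 366 CPM against 409 CPM, and *Ccnd1* had 1 UMI in cluster 11. Of 5 counted CDK inhibitors 3 were called higher, all of the INK4 family that restrains CDK4 and CDK6. *Cdkn2a* was at 22.0 CPM against 2.21 CPM, *Cdkn2c* at 73.8 CPM against 8.32 CPM and *Cdkn2d* at 221 CPM against 69.2 CPM. *Cdkn1a*, the p53-induced inhibitor p21, was level at 21.5 CPM against 22.2 CPM. Of 8 counted p53 targets 0 was called higher, beside 7.91% over all counted genes, so this count says little about the list. The atypical repressors *E2f7* (27.4 CPM against 1.39 CPM) and *E2f8* (58.9 CPM against 1.32 CPM) and the mitotic activators *Foxm1* (52.0 CPM against 1.63 CPM) and *Mybl2* (36.2 CPM against 1.59 CPM) were among 10 of 16 genes called higher in the E2F, Rb and DREAM list.

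**Figure D2:**
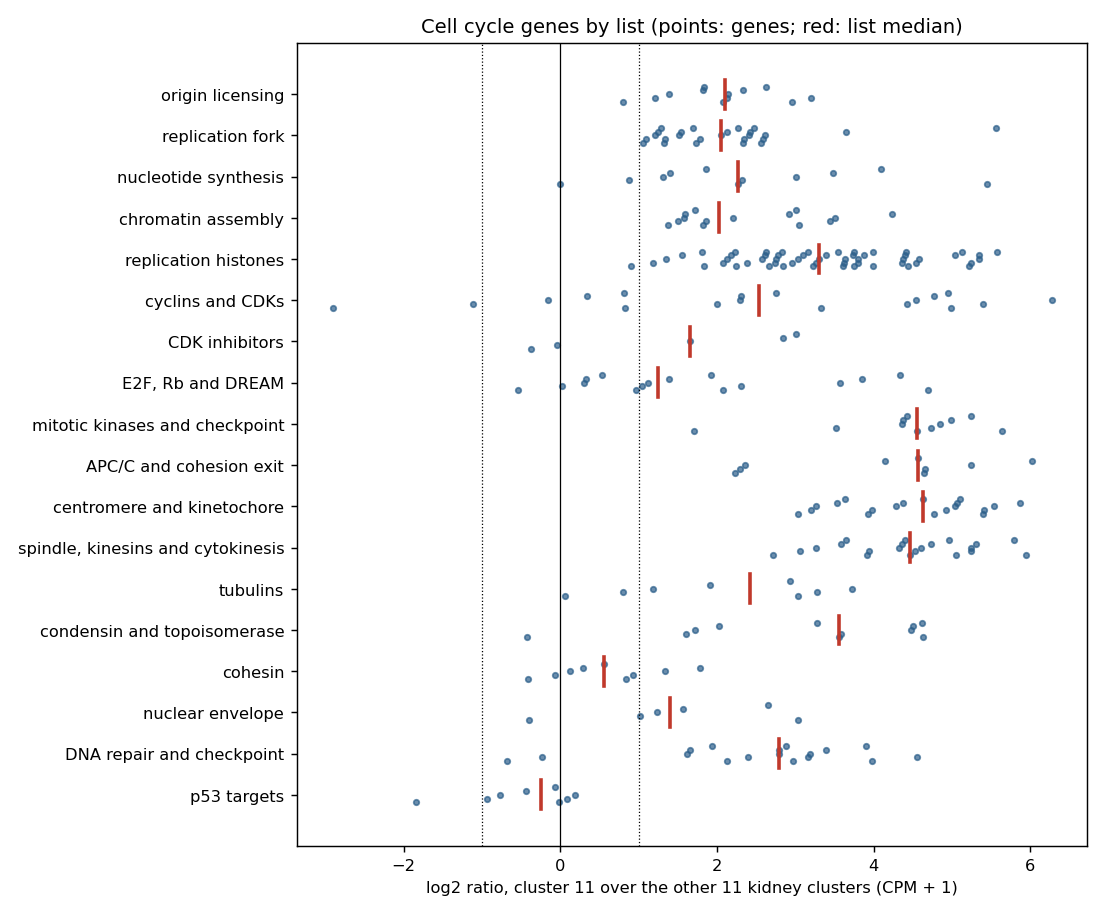
Log2 ratio of cluster 11 over the other 11 kidney clusters (CPM + 1) for each counted gene of the cell cycle lists, with list medians in red and dotted lines at 1 and -1. Centromere, spindle and mitotic kinase genes are centred above 4, replication genes near 2, and cohesin and p53 target genes near 0.

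By the ranking rule the 20 genes with the highest ratio among those with at least 50 CPM were *Hbb-bt*, *Ccna2*, *Ube2c*, *Nusap1*, *Birc5*, *Hmmr*, *Esco2*, *Plk1*, *Hist1h2af*, *Pclaf*, *Cenpf*, *Mxd3*, *Rrm2*, *Depdc1b*, *Nuf2*, *Cdk1*, *Knl1*, *Cdca3*, *Hist1h1b* and *Hist1h2ap*. Their log2 ratios ranged from 5.35 to 6.39. The first, *Hbb-bt*, encodes a haemoglobin beta chain and is not a cell cycle gene. The 10 genes with the lowest ratio were *S100a8*, *Gm20730*, *S100a9*, *Ngp*, *Camp*, *Ighg2b*, *Igfbp7*, *Gpx3*, *Slc34a1* and *Ighg3*, among which are neutrophil granule, kidney tubule and immunoglobulin genes that mark other kidney clusters.

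Cell cycle transcripts were also present outside cluster 11. The cluster contained 53.5% of the UMIs of all cell cycle lists together, but 28.3% when each cell was weighed equally. Its share was 79.5% for centromere and kinetochore genes, 78.4% for spindle genes and 73.7% for replication histones, against 46.0% for replication fork genes and 36.5% for origin licensing genes. The summed level of all cell cycle lists was 64596 CPM in cluster 11, and the other clusters ranged from 6970 CPM (cluster 5) to 12729 CPM (cluster 12), followed by cluster 1 at 11075 CPM. Origin licensing genes in cluster 1 stood at 748 CPM, against 1391 CPM in cluster 11, whereas the mitosis lists together were at 25655 CPM in cluster 11 and at most 4864 CPM elsewhere (cluster 12).

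Over 8990 counted genes outside the cell cycle lists and V segments, the profile of cluster 11 was most like that of cluster 1 among the kidney clusters, with a Spearman correlation across genes of 0.933 and a Pearson correlation of log2 levels of 0.939. Cluster 4 followed at a Spearman correlation of 0.902, and cluster 2 was least like it at 0.686. The cycling clusters of the spleens were at 0.918 (12W) and 0.913 (28W). Genes are not independent replicates, and cluster 1 was also the deepest of the other kidney clusters, so these are descriptions only.

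The sorted T cell identity was present in cluster 11. None of the 14 T cell identity genes was called in either direction, with a median log2 ratio of -0.06. The other clusters in this ratio include clusters 2, 7, 8 and 12, where the list summed to between 2069 and 6533 CPM. Cluster 11 ranked 7 of 12 at 8495 CPM, below cluster 6 at 12273 CPM and cluster 1 at 11532 CPM. *Cd8a* was at 671 CPM against 748 CPM and *Cd8b1* at 1065 CPM against 1127 CPM. *Cd3e* was at 1159 CPM against 1329 CPM. *Pdcd1*, which encodes PD-1, was at 95.02 CPM (85.8 to 105) against 118 CPM, and *Cd44* was at 61.3 CPM against 76.3 CPM. In UMIs per cell *Cd8a* was at 7.65 in cluster 11 and 2.85 in the other clusters.

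Granzymes were the effector genes that stood out against the other clusters together. *Gzma* was at 345 CPM (327 to 363) against 136 CPM and was highest in cluster 11, with cluster 1 next at 266 CPM. *Gzmb* was at 603 CPM against 232 CPM, below the 696 CPM of cluster 1. *Gzmk* was at 869 CPM against 528 CPM, below the 902 CPM of cluster 6 and the 873 CPM of cluster 1. The summed cytotoxic list ranked 4 of 12 at 5576 CPM, with cluster 1 highest at 6883 CPM. *Prf1*, which encodes the pore-forming perforin, was at 55.7 CPM against 87.7 CPM, but at 0.635 UMIs per cell against 0.334. Over the 9 cytotoxic genes 2 were called higher and 0 lower, with a median of -0.06, and the 2 were *Gzma* and *Gzmb*. Cytokine and chemokine genes were lower as a share, with 3 of 7 counted genes called lower and a median of -0.97. Per cell the list summed to 48.5 UMIs in cluster 11 and 33.6 in the others. *Ccl5* was at 3838 CPM against 8074 CPM, and *Ifng* was level at 81.8 CPM against 85.5 CPM.

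Genes of memory and naive cells took a smaller share of the RNA of cluster 11 than of the other clusters together. The low level was shared with cluster 1. The list summed to 440 CPM in cluster 11, 398 CPM in cluster 1, 458 CPM in cluster 6 and 2989 CPM in cluster 8. Of 12 genes 9 were called lower and 0 higher, with a median of -1.32. *Il7r*, the receptor for the survival cytokine IL-7, was at 25.9 CPM against 183 CPM, the lowest of all 12 clusters, and at 0.295 UMIs per cell against 0.697. *Bcl2*, which protects from apoptosis, was at 12.2 CPM against 50.8 CPM and again lowest in cluster 11. *Bach2*, a repressor of effector programmes, was at 2.93 CPM against 13.7 CPM, close to cluster 1 at 3.13 CPM, with cluster 8 at 47.1 CPM. *Tcf7*, the transcription factor of stem-like and memory cells, was at 26.6 CPM against 84.9 CPM, or 0.304 against 0.324 UMIs per cell. The whole list amounted to 5.01 UMIs per cell in cluster 11 and 4.36 in the others, so its lower share came with a similar number of molecules per cell.

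Interferon-stimulated genes were called lower for 9 of 14 members, with a median of -1.18, and 5 of the 14 were lowest in cluster 11. *Ifit3* was at 23.0 CPM against 150 CPM and at 478 CPM in cluster 6, and *Irf7* was at 51.5 CPM against 130 CPM. Immediate-early genes, which respond within minutes to receptor signals and to tissue dissociation, were called lower for 8 of 10 members, with a median of -1.56. *Jun* was at 124 CPM against 396 CPM and *Fos* at 74.3 CPM against 215 CPM, but *Fos* was at 73.4 CPM in cluster 1. The list summed to 1485 CPM in cluster 11, with cluster 1 next lowest at 1665.5 CPM and cluster 8 highest at 13830 CPM. Activation-induced *Nr4a1* was at 25.6 CPM against 99.4 CPM in the other clusters together, but cluster 8 was at 733 CPM and the median of the other clusters was 15.5 CPM, below cluster 11. *Nr4a3* was at 3.66 CPM, with a median of 10.2 CPM over the other clusters and 190 CPM in cluster 8. The cytokine feedback inhibitors *Socs3* (11.2 CPM against 61.5 CPM) and *Cish* (14.2 CPM against 42.6 CPM) were both lowest in cluster 11. Immediate-early transcripts summed to 16.9 UMIs per cell in cluster 11 and 13.8 in the others, and interferon-stimulated transcripts to 32.6 and 16.7.

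Inhibitory receptors were divided, with 2 of 10 counted genes called lower and 0 higher. Over all counted genes 9.98% were called lower and 7.91% higher. Per cell the list summed to 3.99 UMIs in cluster 11 and 1.61 in the others. The list median was -0.18, and it turned to 0.17 against the median of the other clusters. *Lag3* was at 34.0 CPM against 70.2 CPM. *Ctla4* was at 21.3 CPM against 47.4 CPM, but cluster 8 was at 213 CPM and the median of the other clusters was 24.8 CPM, so cluster 11 ranked 7 of 12. In contrast, *Entpd1*, an ectonucleotidase, was at 56.9 CPM against 31.8 CPM and *Havcr2* at 10.0 CPM against 5.57 CPM, short of the call. *Tox*, a transcription factor of exhausted cells, was level at 77.4 CPM against 75.4 CPM. Residency genes were called lower for 2 of 6 counted members, beside the 9.98% over all counted genes. *Cxcr6* was at 277 CPM against 510 CPM and *Itgae* at 1.95 CPM against 6.27 CPM. The residency list summed to 7.82 UMIs per cell in cluster 11 and 4.54 in the others. *Lgals1* (2842 CPM against 1110 CPM) and *Anxa2* (771 CPM against 322 CPM) were called higher and highest of 12 clusters, as was *Vim* at 1596 CPM against 926 CPM without being called.

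Growth genes showed a mixed picture. The 93 counted cytosolic ribosomal protein genes had a median of -0.51, and summed to 181530 CPM against 267010 CPM, although this was 2070 UMIs per cell against 1018. Nuclear genes of oxidative phosphorylation had a median of 0.38 with 0 of 75 called, whereas 8 of 13 mitochondrial genome genes were called lower. The mitochondrial genome list summed to 68.1 UMIs per cell in cluster 11 and 47.6 in the others. Of 14 one-carbon and purine synthesis genes 3 were called higher, including *Mthfd2* at 104 CPM against 38.2 CPM. *Gapdh* was at 3330 CPM against 1696 CPM, highest of 12 clusters. *Ran*, a GTPase of nuclear transport and spindle assembly, was at 1142 CPM against 337 CPM, but *Myc* was at 15.9 CPM against 46.2 CPM, with cluster 8 at 199 CPM.

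**Figure D3:**
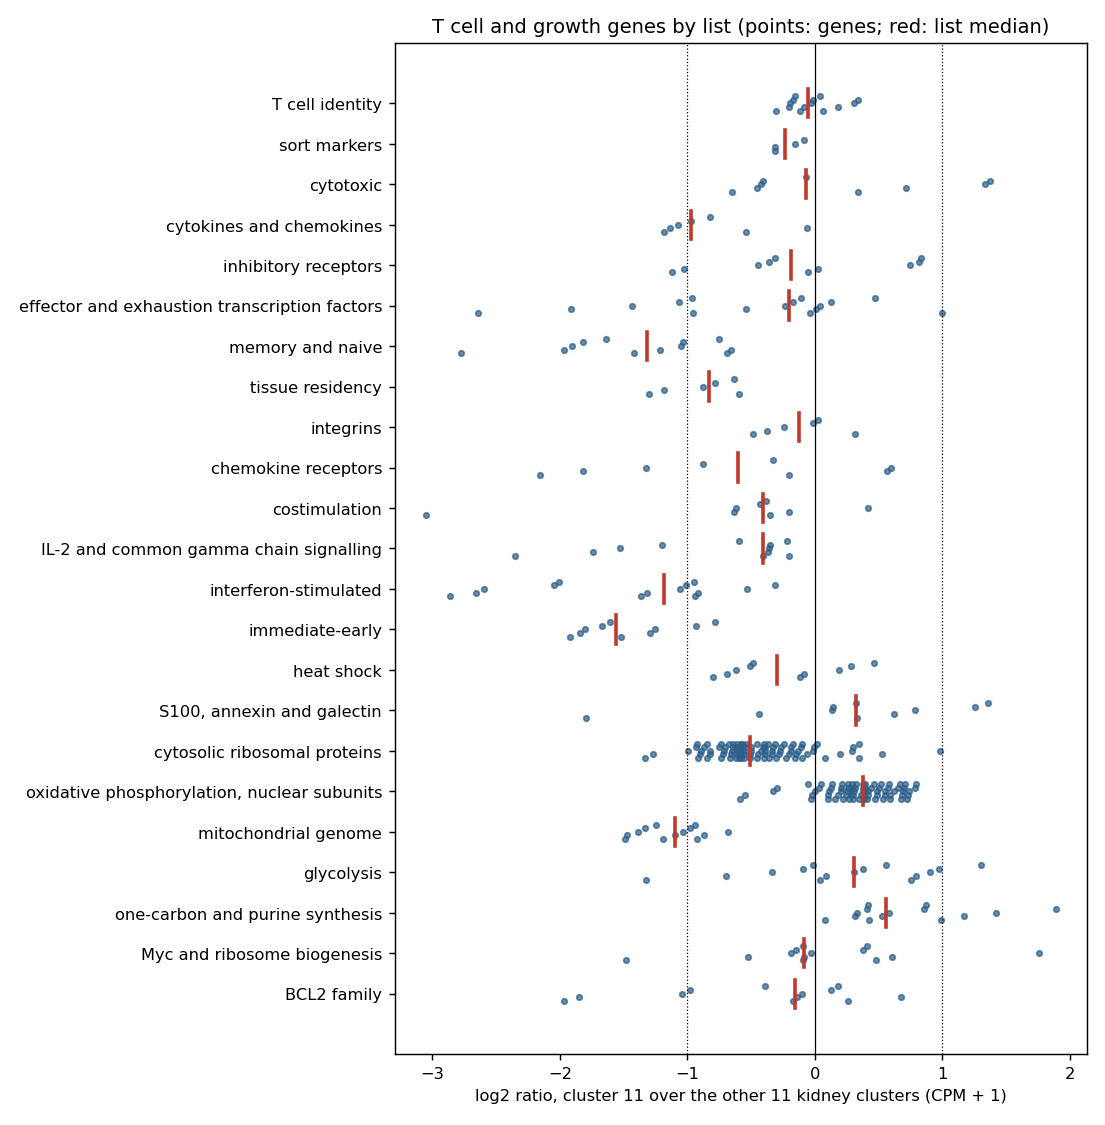
Log2 ratio of cluster 11 over the other 11 kidney clusters (CPM + 1) for each counted gene of the T cell and growth lists, with list medians in red and dotted lines at 1 and -1. T cell identity genes sit around 0, while memory, interferon-stimulated and immediate-early genes are centred below -1.

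Transcripts of other cell types were also present in cluster 11. All 3 counted haemoglobin genes were called higher, with a summed level of 1799 CPM against 87.0 CPM in the other clusters and 2145 CPM in cluster 2. In each of the other 10 clusters the sum was at most 60.7 CPM. Red cell precursor genes were present beside them. *Alas2*, the erythroid haem synthesis enzyme, had 40 UMIs in cluster 11 at 9.77 CPM, against 0.116 CPM in the others. After these values were seen, 8 further erythroid genes were examined, of which *Hemgn* had 47 UMIs (97.9% of its kidney UMIs) and *Rhd* had 38 UMIs with 0 elsewhere, at least 80.0-fold higher when the other clusters are set at 3 UMIs together. In the cycling clusters of the spleens the haemoglobin sum was 6.64 CPM (12W) and 4.03 CPM (28W).

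Immunoglobulin was the other foreign signal. *Igkc*, the kappa constant gene, was at 2186 CPM in cluster 11 against 529 CPM, behind cluster 7 (4049 CPM) and cluster 2. *Ighg1*, the IgG1 constant gene, was at 204 CPM and highest in cluster 11, with cluster 8 next at 139 CPM, whereas *Ighg2c* was at 3.66 CPM and *Ighm* at 84.3 CPM, the lowest of 12 clusters. The variable segments, examined after these values were seen, were nearly of 1 kind. *Igkv3-4* made up 95.9% of the 12550 kappa V UMIs in cluster 11 (exact binomial interval 95.5% to 96.2%), and at most 4.17% in any other cluster. *Ighv1-19* made up 85.1% of the 6284 heavy V UMIs, followed by *Ighv1-26* at 9.05%, and V segments that resemble each other can share reads. Cluster 11 contained 98.9% of all *Igkv3-4* UMIs and 98.1% of all *Ighv1-19* UMIs of the library. The most used kappa segment took between 16.1% and 33.3% of kappa V UMIs in clusters 1 to 10 and 94.0% in cluster 12. UMIs of 1 cell are not independent, so these intervals understate the error, and the number of cells that carried the transcripts is not given by the pooled columns.

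B cell genes were lower than in the other clusters together for 8 of 8 members, with a median of -2.09, and the list was highest in clusters 12 and 8. Without the 4 clusters rich in markers of other cell types (2, 7, 8 and 12) the median was 3.17. *Cd74* was at 458 CPM in cluster 11, against 24827 CPM in cluster 12 and 28.4 CPM in cluster 9. The plasma cell list was at 208 CPM against 1285 CPM, with *Jchain* at 125 CPM against 1178 CPM. Neutrophil genes summed to 0.977 CPM, kidney tubule genes to 12.7 CPM against 824 CPM, and the natural killer gene *Ncr1* had 0 UMIs, which allows up to 0.733 CPM. *Cd4* had 5 UMIs and *Foxp3* 2 UMIs. How far haemoglobin, immunoglobulin and B cell transcripts bear on the T cell gene levels of the cluster was not tested.

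**Figure D4:**
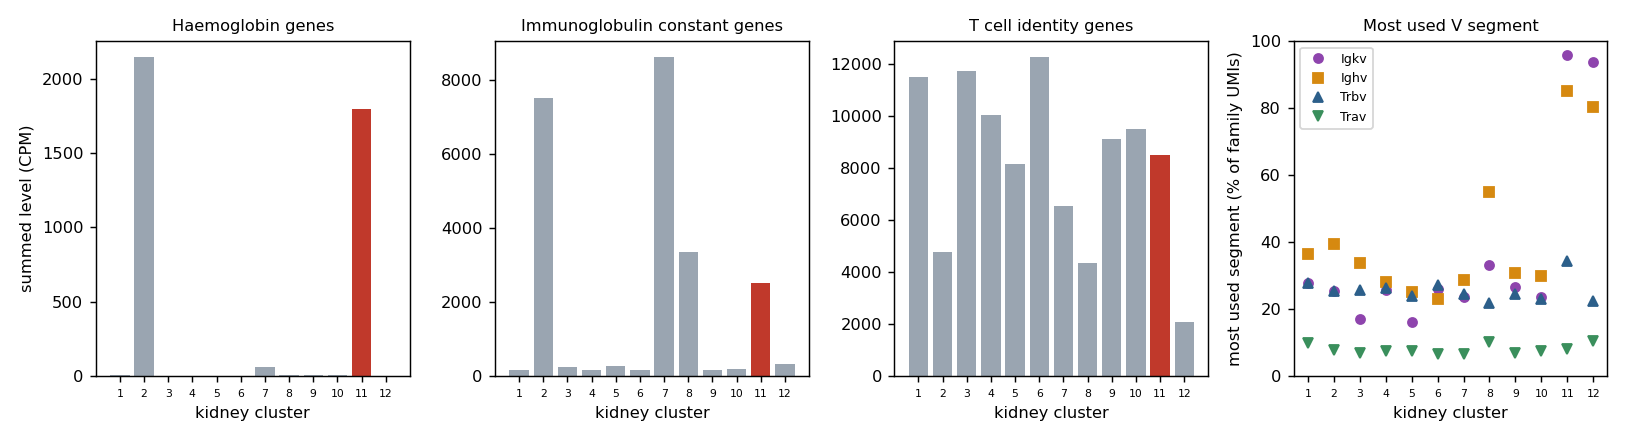
Summed level (CPM) of haemoglobin, immunoglobulin constant and T cell identity genes in each of the 12 kidney clusters, with cluster 11 in red, and the share of the most used V segment within each receptor family. Cluster 11 has haemoglobin at 1799 CPM with T cell identity genes at 8495 CPM, and its most used kappa segment took 95.9% of kappa V UMIs while its most used *Trbv* segment took 34.3%.

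The T cell receptor segments of cluster 11 were diverse by comparison. *Trbv13-1* was the most used beta segment, with 34.3% of 7875 *Trbv* UMIs (33.3% to 35.4%) against 23.6% in the other clusters, where single clusters ranged from 19.1% to 27.8%. *Trbv13-2* made up 17.7% against 24.1%, *Trbv4* 8.79% against 8.98%, *Trbv20* 8.29% against 8.84% and *Trbv14* 7.56% against 8.86%. Only *Trbv13-1* was above and *Trbv13-2* below the range of the other 11 clusters among these 5 segments. The effective number of *Trbv* segments (the exponential of the Shannon entropy) was 7.72 in cluster 11, the lowest of 12 clusters, whose other values ran from 8.07 to 10.8. For *Trav* the most used segment was *Trav3-3* at 7.95%, and the effective number was 37.5. UMIs of a clone are not independent, and clones were not analysed here.

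The cycling cells of the kidney were then set beside those of the spleens. By the summed level of the 4 markers the cycling cluster was cluster 10 in 12W spleen (210 cells, 3.05% of the library, 14345 UMIs per cell) and cluster 6 in 28W spleen (528 cells, 8.15%, 12208 UMIs per cell). *Mki67* alone was higher in cluster 8 of 12W spleen (376 CPM against 351 CPM) and in cluster 11 of 28W spleen (307 CPM against 153 CPM). These 2 clusters were shallow, at 928 and 1288 UMIs per cell. *Top2a*, *Birc5* and *Stmn1* were highest in the chosen clusters. The summed markers were at 3333 CPM in kidney, 2793 CPM in 12W spleen and 1174 CPM in 28W spleen. Of 8921 genes counted against 12W spleen, 622 were called higher in kidney (6.97%) and 478 lower (5.36%), with a median log2 ratio of 0.11. Against 28W spleen 818 of 8962 genes were called higher (9.13%) and 616 lower (6.87%), with a median of 0.10. Tissue, dissociation and library cannot be told apart in these ratios, nor can age in the ratio against 12W spleen. Both comparisons share the kidney cluster, so they are not independent of each other.

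The kidney cluster had more mitotic and histone transcripts than the 28W spleen cluster, while against 12W spleen few mitotic genes passed the fold. Replication histones summed to 13743 CPM in kidney, 6977 CPM in 12W spleen and 4745 CPM in 28W spleen. Mitosis list genes were called higher for 68 of 95 counted genes against 28W spleen and for 4 of 95 against 12W spleen, with medians of 1.51 and 0.53. Against 12W spleen this share of called genes was below the 6.97% over all genes, and the median was 0.29 with totals that left out receptor, mitochondrial, ribosomal and cell cycle genes. *Ccna2* was at 446 CPM in kidney, 228 CPM in 12W spleen and 110 CPM in 28W spleen, and *Plk1* was at 194, 98.9 and 52.9 CPM. S phase list genes other than histones were called higher for 11 of 79 genes against 28W spleen, with a median of 0.42, and for 0 of 79 against 12W spleen, with a median of -0.14. *Mcm5* was at 186 CPM in kidney, 218 CPM in 12W spleen and 173 CPM in 28W spleen. The order of the libraries was thus the same for histones and mitotic genes but not for origin licensing, which summed to 1391, 1727 and 1336 CPM. The 4 markers, by which the spleen clusters were picked, are no separate evidence of this order. The inhibitor *Cdkn2a* was at 22.0 CPM in kidney and at 1.66 and 1.55 CPM in the 12W and 28W spleen clusters.

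Cytotoxic genes were higher in the kidney cluster than in both spleen clusters, whereas other effector lists were divided against 28W spleen. The cytotoxic list was called higher for 7 of 9 members against each spleen cluster, with medians of 1.72 (12W) and 2.21 (28W). *Gzmb* was at 603 CPM in kidney, 8.63 CPM in 12W spleen and 48.4 CPM in 28W spleen, and *Gzmk* was at 869, 23.9 and 63.5 CPM. *Nkg7* was at 2247, 290 and 485 CPM. Against 28W spleen, effector and exhaustion transcription factors were called higher for 6 and lower for 5 of 16 genes, and cytokines and chemokines for 1 and 1 of 6 genes. After subtraction of the log2 ratio between the other cells of both libraries, these medians turned from 0.52 to -0.14 and from 0.70 to -0.76. Among the other cells of each library cytotoxic genes summed to 4515 CPM in kidney, 1473 CPM in 12W spleen and 2253 CPM in 28W spleen, and after subtraction of the log2 ratio between those other cells the medians were 0.52 (12W) and 0.86 (28W). Chemokine receptors were also divided, with 4 called higher and 3 lower of 8 genes against 12W spleen and 5 higher and 3 lower against 28W spleen. Their median against 12W spleen was 1.23, which was -0.0238 after the same subtraction. *Ccr2* was higher, at 192, 3.65 and 6.98 CPM. *Entpd1* was at 56.9, 0.664 and 3.57 CPM, and *Pdcd1* at 95.02, 26.9 and 35.1 CPM.

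Memory and naive genes were called lower in kidney for 12 of 12 genes against 12W spleen and 11 of 12 against 28W spleen, with medians of -2.46 and -2.23. *Ccr7*, the receptor that guides T cells to lymph nodes, was at 23.9 CPM in kidney, 301 CPM in 12W spleen and 163 CPM in 28W spleen, and *Tcf7* was at 26.6, 165 and 163 CPM. In the other cells of the libraries this list summed to 1144 CPM in kidney, 3250 CPM in 12W spleen and 3312 CPM in 28W spleen, and with that ratio subtracted the medians were -0.90 (12W) and -0.95 (28W).

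Myc and ribosome biogenesis genes ran the other way in 28W spleen. The list summed to 3295 CPM in the kidney cluster, 4926 CPM in the 12W spleen cluster and 7610 CPM in the 28W spleen cluster, and 10 of 13 counted genes were called lower in kidney against 28W spleen, against 2 of 13 for 12W spleen. The median against 12W spleen was -0.43 and turned to 0.61 after subtraction of the ratio between the other cells of both libraries. *Myc* itself was at 15.9 CPM in kidney, 76.7 CPM in 12W spleen and 167 CPM in 28W spleen, and *Srm*, spermidine synthase, was at 28.6, 43.2 and 243 CPM. One-carbon and purine synthesis genes were called lower for 8 of 14 members against 28W spleen and 1 of 14 against 12W spleen. *Xcl1* was at 68.4 CPM in kidney, 66.4 CPM in 12W spleen and 584 CPM in 28W spleen, and *Tnfrsf9*, an activation receptor, was at 22.2, 24.9 and 153 CPM.

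The 10 genes most above 12W spleen were *Igkc*, *Hbb-bs*, *Hbb-bt*, *Ighg1*, *Hspa1a*, *Hba-a1*, *Gzmb*, *Ccl4*, *Jchain* and *Hspa1b*, and those most below included *Igfbp4*, *Satb1*, *Atp1b1*, *Ccr9*, *Ccr7*, *Rgcc*, *Rflnb*, *Ramp1* and *Rgs10*. Against 28W spleen the highest were *Hbb-bs*, *Hbb-bt*, *Igkc*, *Ighg1*, *Hba-a1*, *Fgl2*, *Ccr2*, *Hspa1a*, *Gzmk* and *Entpd1*, and the lowest included *Myc*, *Satb1*, *Xcl1*, *Srm*, *Mybbp1a*, *Dtx1*, *Cd200*, *Tnfrsf9* and *Apex1*. *Hspa1a*, an inducible heat shock protein, was at 459 CPM in the kidney cluster and 704 CPM in the other kidney cells, against 2.32 CPM and 18.0 CPM in the 12W and 28W spleen clusters. Collagenase digestion is described for renal tissue, and tissue and dissociation cannot be told apart for stress genes.

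**Figure D5:**
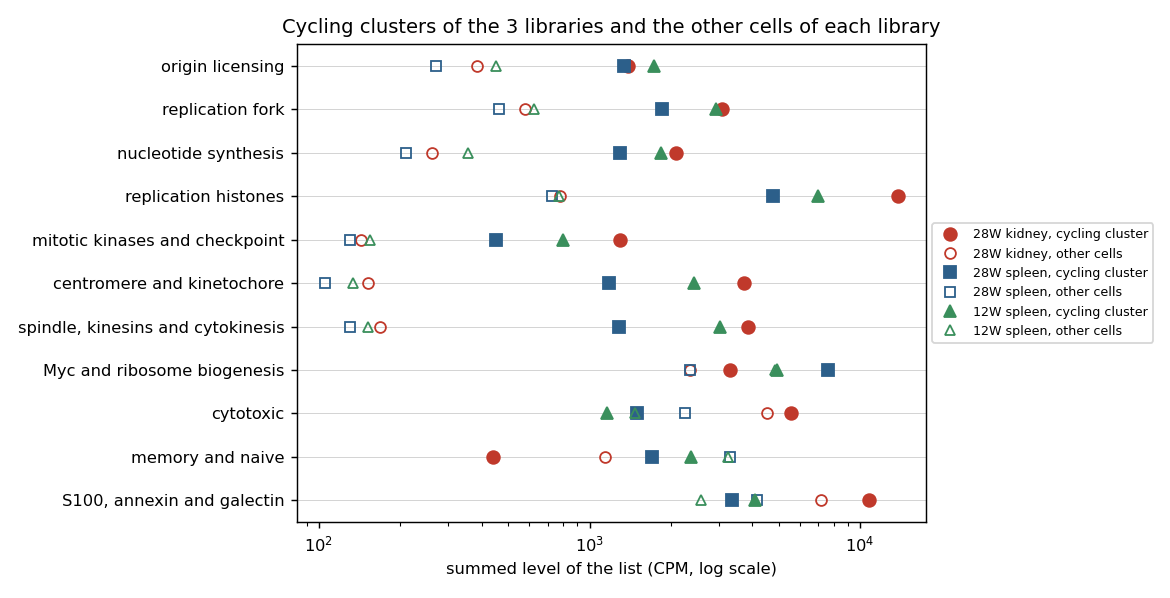
Summed level (CPM, log scale) of 11 gene lists in the cycling cluster of each library (filled) and in the other cells of the same library (open). Among the cycling clusters the kidney one is highest for histone, mitotic and cytotoxic lists and lowest for memory genes, and the 28W spleen cluster is highest for Myc and ribosome biogenesis genes.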

How the data were processed

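Sorted splenic and renal CD8+ T cells were sequenced with 10x 5′ chemistry. The submitters' processing notes name Cell Ranger 2.1.1, R 3.6.1 and GRCm38, while cell filters, doublet handling and annotation are not given in the sources used here. The deposited signal is the mean count per gene and cluster after depth scaling. All values (100%) were whole multiples of the smallest value of their column within 0.001, which returned the UMI counts, and no count test was run with 1 library per group. The deposited columns of fold changes and p-values were not used. Cluster numbers were taken from the authors' barcode lists. Counts were summed and compared as CPM with a pseudocount of 1 CPM in Python 3.11.15. Genes needed 5 CPM on either side, and genes named by rank (the 20 highest and 10 lowest, or 10 and 10 against each spleen) needed 50 CPM, with receptor segments ranked apart. Intervals are exact Poisson or binomial at 95%. The ratio calculation was tested on simulated data. Genes not listed in a library were left out of comparisons with it. Gene IDs were matched to GENCODE M21 and promoters to RefSeq by symbol. The cells, gene lists and rules were chosen with earlier results of these data known, and the added erythroid and immunoglobulin lists and V segments after the values were seen. PCR copies are removed by UMIs, but intervals cover counting error only. A few genes that the rule or the lists would name are not reported here.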

Additional observations from a re-analysis of the deposited data

Results flagged for a closer look

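Lists were picked out here where the summed level of the cycling cluster over the other cells of its own library had opposite directions in kidney and in a spleen, with a log2 ratio of at least 0.5 on both sides. The difference between libraries was not tested in any of these, since each group is 1 library. Haemoglobin was at a log2 ratio of 4.37 in kidney, against -8.63 at 12W and -7.28 at 28W in spleen, where the other spleen cells were at 2637 CPM (12W) and 626 CPM (28W). Immunoglobulin constant genes were at 0.96 in kidney, against -0.54 at 12W and -1.66 at 28W in spleen, and were examined after the kidney values were seen. Tissue residency genes were at -0.80 in kidney and 0.72 in 28W spleen, where *Xcl1* was at 584 CPM in the cycling cluster. Kidney tubule genes were at -6.02 in kidney and 3.25 in 12W spleen, where their level was 2.99 CPM in the cycling cluster and 0.315 CPM in the other cells.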

How the results depend on the processing

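Depth limits the description to 4093889 UMIs in cluster 11, in which 3 UMIs are 0.733 CPM. Against the other kidney clusters 54 of 60 list medians kept their direction without clusters 2, 7, 8 and 12 and 52 against the median of the other clusters. A larger pseudocount cannot turn a ratio and another total moves all genes alike, so direction under these is no sign of stability. Where a value changed and no construction of the alternative is named, the cause was not tested.

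With a pseudocount of 10 CPM, which shrinks the ratios of low genes, 326 genes were lower than in the other kidney clusters (939 as reported), 252 were higher and 154 lower than in 12W spleen (622 and 478), and 368 were higher and 236 lower than in 28W spleen (818 and 616). Medians over the other kidney clusters were then 1.47 for S phase lists, 2.62 for mitosis lists and -0.91 for memory and naive genes. Memory and naive genes were at -1.97 against 12W spleen and -1.77 against 28W spleen, where cytotoxic genes were at 1.94 and mitosis lists at 1.31. Without a filter on low genes 1783 genes were lower than in the other kidney clusters and 793 lower than in 12W spleen.

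Without clusters 2, 7, 8 and 12, 495 genes were lower in cluster 11, and against the median of the other clusters 496. Memory and naive genes were then at -0.69 and -0.84, and cytotoxic genes at -0.30 and 0.15. Inhibitory receptors turned to 0.17 against the median of the other clusters. B cell genes turned to 3.17 and 2.90, plasma cell genes to 0.86 and 0.81 and immunoglobulin constant genes to 1.19 and 1.79, while myeloid genes turned to 0.0118 without those clusters.

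With scaling by the median ratio, cytotoxic genes were at 0.0238 and mitosis lists at 4.02 over the other kidney clusters, and cytotoxic genes at 2.11 over 28W spleen. With totals that left out receptor, mitochondrial, ribosomal and cell cycle genes, these were -0.14, 3.999 and 1.98, cytotoxic genes were at 1.49 and mitosis lists at 0.29 over 12W spleen, mitosis lists were at 1.28 over 28W spleen, and 910 and 1105 genes were lower than in 12W and 28W spleen.

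After subtraction of the ratio between the other cells of each library, 37 of 57 list medians kept their direction against 12W spleen and 45 of 57 against 28W spleen. Cytotoxic genes were at 0.52 and 0.86, memory and naive genes at -0.90 and -0.95 and mitosis lists at 0.35 and 1.05 (12W and 28W), and S phase lists at -0.0394 (28W). Against 12W spleen tissue residency genes turned to -0.0929, chemokine receptors to -0.0238, interferon-stimulated genes to -0.52, S100, annexin and galectin genes to -0.0141, B cell genes to -0.38, Myc and ribosome biogenesis genes to 0.61, one-carbon and purine synthesis genes to 0.52 and immediate-early genes to -0.80. Against 28W spleen inhibitory receptors turned to -0.31, tissue residency genes to -0.32, cytokines and chemokines to -0.76, effector and exhaustion transcription factors to -0.14, origin licensing to -0.61 and nucleotide synthesis to -0.59. The share of cell cycle UMIs in cluster 11 was 28.3% with cells weighed equally and 53.5% by UMIs. No paired analysis was possible because the results come from no test and each group is 1 pooled library.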
